A study of Mus musculus with 8 samples.

Results

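The expression difference between Survivin-deleted and Survivin wild-type mouse liver was measured at 36 and 48 h after partial hepatectomy (PHx, surgical removal of part of the liver), when the remaining hepatocytes replicate their DNA and then divide. The comparison used 4 of the 8 arrays of the series, taken by their titles: 1 Mxcre-positive and 1 Mxcre-negative liver sample at each time, so 2 pairs. Mxcre-positive samples are labelled as Survivin deleted and Mxcre-negative samples as Survivin wild type. The Mx1 promoter that gives Mxcre its name is switched on by interferon and acts in hepatocytes and in blood-forming cells, among others. Mice of both genotypes were of strain 129/SV/B6, had undergone irradiation with transplantation of bone marrow 2 months earlier, and had received poly(IC), a double-stranded RNA mimic that induces interferon, 1 week before the liver was taken. The labels do not give the sex of each sample, and the genotype of the marrow donors, the age of the mice, the form of the Survivin allele and whether an RNA sample came from 1 or several animals are not given in the sources used here. Of 18316 genes named on the array, 13517 exceeded background clearly (the scanner's well above background mark) in 2 or more of the 4 samples and were tested. Of these, 12520 passed on all 4 arrays, 500 on 3 and 497 on 2. Just outside the rule, 802 genes were well above background on 1 array. The median size of the mean difference was 0.47 (log2) for genes on 2 arrays and 0.82 for genes on 1.

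Survivin, the product of Birc5, is the smallest member of the inhibitor of apoptosis family and a subunit of the chromosomal passenger complex. In that complex it joins Incenp and borealin (Cdca8) to bring the kinase Aurora B to centromeres and later to the central spindle, where the complex corrects chromosome attachment and drives cytokinesis. In an adult liver most hepatocytes are quiescent and Birc5 is hardly expressed. After PHx they re-enter the cycle nearly in step, with replication genes induced first and the mitotic genes, Birc5 among them, after.

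Levels are log2 signals relative to the 75th percentile of the same array, and a difference is the Mxcre-positive minus the Mxcre-negative level of a pair. The 4 arrays lay on 1 slide, where 60.2% to 66.0% of spots were well above background. Replicate spots of a probe varied by a median of 4.45% to 5.31% of their mean. Each group holds 1 array, so that a difference carries no replicate error of its own, and the agreement of the 2 pairs is the available check. An exact permutation of genotype within 2 pairs cannot give a two-sided p below 0.5. The limma fit with time as a block left 1 residual degree of freedom. It called 0 genes higher (0%) and 0 lower (0%) at an adjusted p of 0.05, with a smallest adjusted p of 0.430. At an unadjusted p under 0.05 there were 592 genes higher and 876 lower, 1468 in all, where 676 would be expected by chance.

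The sex-linked transcripts separated the late samples in the same way as genotype. All 4 Y-linked genes tested were well above background on both Mxcre-negative arrays and on neither Mxcre-positive array. For Ddx3y, an RNA helicase gene, the levels were 0.63 and -6.50 at 36 h and 1.79 and -6.81 at 48 h, Mxcre-negative first. Where a probe was not well above background on an array, its fold is given as a lower bound, set against the dimmest signal that counted as well above background there or the probe's own signal if higher. On that scale Ddx3y was at least 32.7-fold and at least 94.9-fold lower in the Mxcre-positive samples, and Eif2s3y, a translation factor gene, at least 28.5-fold and at least 63.9-fold lower. Xist, the RNA that silences an X chromosome in females, was at 4.44 and 5.24 at 36 h and at 2.38 and 5.16 at 48 h, so that it was present in all 4 samples and highest in the Mxcre-positive ones. In the 24 h pair Ddx3y was well above background on both arrays and differed by -0.43, and in the 0 h pair it was so on neither. In the late pairs genotype and this difference in sex-linked signal cannot be told apart. Every difference given here for the 36 and 48 h pairs carries it.

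The sign of the difference was the same in both pairs for 8532 of the 13517 genes (63.1%), with 4854 lower in both (35.9%) and 3678 higher in both (27.2%). By 2-fold or more in both pairs, 139 genes were lower (1.03%) and 91 were higher (0.673%) in the Mxcre-positive samples. Of the 139, 67 were well above background on all 4 arrays, and of the 91, 70 were. The excess of lower over higher genes was thus absent among genes well above background on all 4 arrays. With quantile normalization, the deposited values or the normexp background correction, more genes were higher than lower by this rule. Leaving out the Y-linked, X-inactivation and sex-biased genes gave 127 lower and 83 higher. Only listed genes and those of chromosome Y are left out this way, with 13456 genes kept. These counts therefore cannot separate the sex-linked difference from genotype. The median difference over all genes was -0.04 at 36 h and -0.03 at 48 h. The median size of a difference was 0.22 at 36 h and 0.23 at 48 h, against 0.19 at 0 h and 0.15 at 24 h. The limma test of the late minus the early differences over all 8 arrays called 0 genes (0%), with a smallest adjusted p of 0.315 and 1211 genes at an unadjusted p under 0.05.

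**Figure D1:**
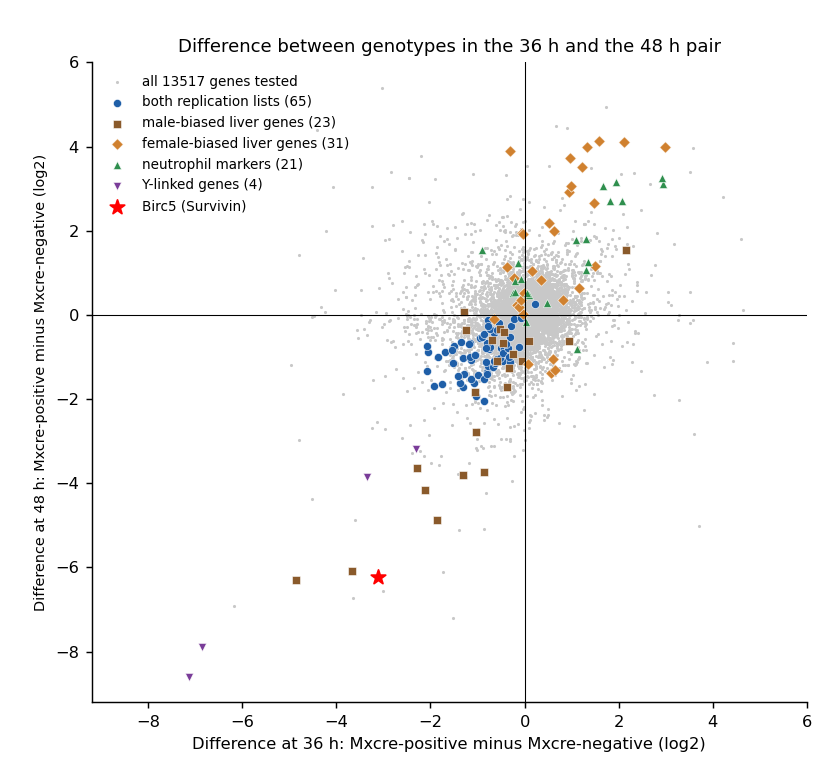
Difference between Mxcre-positive and Mxcre-negative samples (log2) in the 36 h pair (horizontal) and the 48 h pair (vertical) for the 13517 genes tested, 1 point per gene, with members of 5 lists and Birc5 marked. Birc5 lies at -3.12 and -6.24, 64 of 65 replication genes lie below and left of 0, and Y-linked genes, plotted at their measured signal, lie further down and left.

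Birc5 was lower in the Mxcre-positive sample of both pairs. Its level was 1.61 and -1.51 at 36 h and 5.10 and -1.14 at 48 h. The probe stayed well above background on all 4 arrays. This is an 8.68-fold difference at 36 h and a 75.4-fold one at 48 h, with a mean difference of -4.68 with a standard error of 0.92 (2 pairs, limma adjusted p 0.430). The Mxcre-negative sample of 48 h was the highest of the 4, and both Mxcre-positive samples lay near each other. Where the probe lies relative to the deleted part of the gene was not analysed here. The difference was -2.55 at 0 h and -2.95 at 24 h, so the Mxcre-positive sample was the lower one at all 4 times.

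The other subunits and partners of the chromosomal passenger complex were lower by far less than Birc5. Of 8 genes tested, Birc5 included, 7 were lower in both pairs, and the median difference was -0.89 at 36 h and -0.85 at 48 h. In both early pairs 6 of the 8 were lower, with medians of -0.16 at 0 h and -0.31 at 24 h. Incenp, the scaffold of the complex, was at 2.09 and 1.25 at 36 h and at 3.71 and 2.74 at 48 h. Aurkb, its kinase, was at -2.05 and -2.51, then at 0.47 and -0.52. Both genes were therefore lower in the Mxcre-positive sample of each pair, but higher at 48 than at 36 h in both genotypes. Cdca8 differed by -1.12 and -0.60, and Haspin, the kinase that marks the histone bound by Survivin, by -0.91 and -0.88. Sgo1, a shugoshin that protects centromeres, differed by -0.81 and -0.71. The exception was Bub1, a checkpoint kinase, at -0.87 and 0.03, and its probes differed in sign.

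DNA replication genes were lower in the Mxcre-positive samples almost without exception. Of 65 tested, 64 were lower in both pairs and 15 by 2-fold or more in both. The median difference was -0.81 at 36 h and -0.92 at 48 h. In the early pairs the median was -0.08 at 0 h and 0.02 at 24 h. None of the 65 was called by limma.

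Of the 27 genes on the list for origin licensing and the replicative helicase, 26 were lower in both pairs. Cdc6, which loads the helicase onto origins, was at -0.38 and -2.14 at 36 h and at -1.94 and -3.57 at 48 h. Mcm5, a helicase subunit, was at 3.86 and 2.56, then at 3.51 and 1.79. In each gene both Mxcre-positive values lay below the Mxcre-negative value of the same time. Mcm6 differed by -1.04 and -1.93, Mcm10 by -1.38 and -1.62, Mcm3 by -1.53 and -1.14 and Mcm7 by -1.30 and -1.02. Cdca5 (sororin), counted with the replication genes though it holds replicated sister chromatids together, differed by -1.28 and -1.40. Orc1, the largest subunit of the origin recognition complex, was not well above background on either Mxcre-positive array, which bounds its difference at -1.36 and -1.01 or lower. Other subunits differed less, with Orc2 at -0.28 and -0.27, Orc4 at -0.08 and -0.07 and Orc5 at -0.23 and -0.10. Orc3 at 0.22 and 0.25 was the 1 gene higher in both pairs, and its probes differed in sign.

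All 38 genes of the replication fork, nucleotide supply and chromatin assembly were lower in both pairs by their brightest probe. Other probes of Pold3, a polymerase subunit, and of Mcm8 on the licensing list differed from it in sign, reaching 0.22 and 0.07 at 36 h. Uhrf1, which keeps DNA methylation through replication, was at 2.82 and 0.89 at 36 h and at 1.60 and -0.08 at 48 h. Chaf1a, the large subunit of the assembly factor that places histones behind the fork, was at 1.54 and -0.54, then at 1.05 and -0.28. Pole, the leading strand polymerase, was at 2.27 and 1.13, then at 2.33 and 0.80. These 3 genes were more than 2-fold lower in both pairs. Pcna, the sliding clamp, differed by -0.45 and -1.10. The enzymes of nucleotide supply showed the same order, with Rrm1 at -0.77 and -1.22 and Tyms at -0.30 and -1.12.

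Promoter sequence was examined for the replication list. Its members were chosen by function, so the share of a motif describes the list and not the genes that differed. The windows run from 250 bases before to 50 after the first listed start of a gene (RefSeq, GRCm38.p6). E2F factors turn on replication genes at the end of G1, and the E2F letters searched were TTTCCCGC and TTTGGCGC on both strands. Of 54 replication genes with a window, 14 (25.9%) held a match, against 2.84% of the windows of all genes tested and 1.63% of all 27025 windows. Among genes lower by 2-fold or more in both pairs, 9 of 108 windows (8.33%) held a match. Among those higher by 2-fold or more, 0 of 73 did. The lower genes overlap the replication list: Cdc6, Mcm3, Mcm5, Mcm6 and Mcm7 are in both and hold a match. Their share is therefore not separate from that of the list. A match is a description of the letters, not a site or a cause. The windows of 5 replication genes with a match, all lower in both pairs, are shown upstream of the start. They read 5′ to 3′ on the strand of the gene, with the match in capitals. Cdc6 is at chr11:98907987-98908046 (+), Mcm5 at chr8:75109334-75109393 (+), Mcm6 at chr1:128359782-128359841 (-), Mcm7 at chr5:138172015-138172074 (-) and Gins3 at chr8:95633492-95633551 (+).
Cdc6: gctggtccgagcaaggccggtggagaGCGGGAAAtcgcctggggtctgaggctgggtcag
Mcm5: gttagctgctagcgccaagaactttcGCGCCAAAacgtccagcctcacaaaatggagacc
Mcm6: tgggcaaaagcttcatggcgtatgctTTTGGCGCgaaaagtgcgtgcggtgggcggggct
Mcm7: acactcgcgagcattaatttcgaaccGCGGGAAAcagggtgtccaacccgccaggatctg
Gins3: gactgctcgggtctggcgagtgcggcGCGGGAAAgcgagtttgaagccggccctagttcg

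Most genes of the E2f family were lower, as were the E-type cyclins and Ccna2, while Ccnb1 and Ccnb2 lay close to 0 difference. Of 17 genes of the E2f and pocket protein families, 11 were lower in both pairs, with medians of -0.42 and -0.35. E2f1, an activator, was at -0.18 and -1.59 at 36 h and at 0.00 and -1.66 at 48 h. E2f7 and E2f8, repressors that are themselves E2F targets, differed by -0.57 and -1.41 and by -0.34 and -1.56. Foxm1, which drives mitotic genes, differed by -0.42 and -0.44. Among 23 cyclin, Cdk and related genes, 14 were lower in both pairs, 1 was higher and 8 differed in opposite directions. Ccne2, a cyclin of S phase entry, was at -1.84 and -2.55, then at -2.06 and -4.00, and its partner gene Ccne1 differed by -0.36 and -1.22. Ccna2 differed by -0.34 and -0.59.

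The cyclins of mitosis followed the same course in both genotypes. Ccnb1 was at -3.33 and -3.22 at 36 h and at 0.76 and 0.75 at 48 h. Ccnb2 was at -0.03 and 0.27, then at 4.01 and 4.09. At either time the 2 genotypes lay within 0.30 of each other, while each gene was about 4 log2 units higher at 48 than at 36 h. Cdk1, their kinase, differed by -0.64 and -0.06, and Plk1, a mitotic kinase, by -0.50 and -0.30. Among 7 Cdk inhibitors tested, Cdkn1a (p21) was at 2.63 and 3.52 at 36 h and at 3.46 and 3.48 at 48 h. It was thus higher in the Mxcre-positive sample at 36 h and level with its pair at 48 h.

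**Figure D2:**
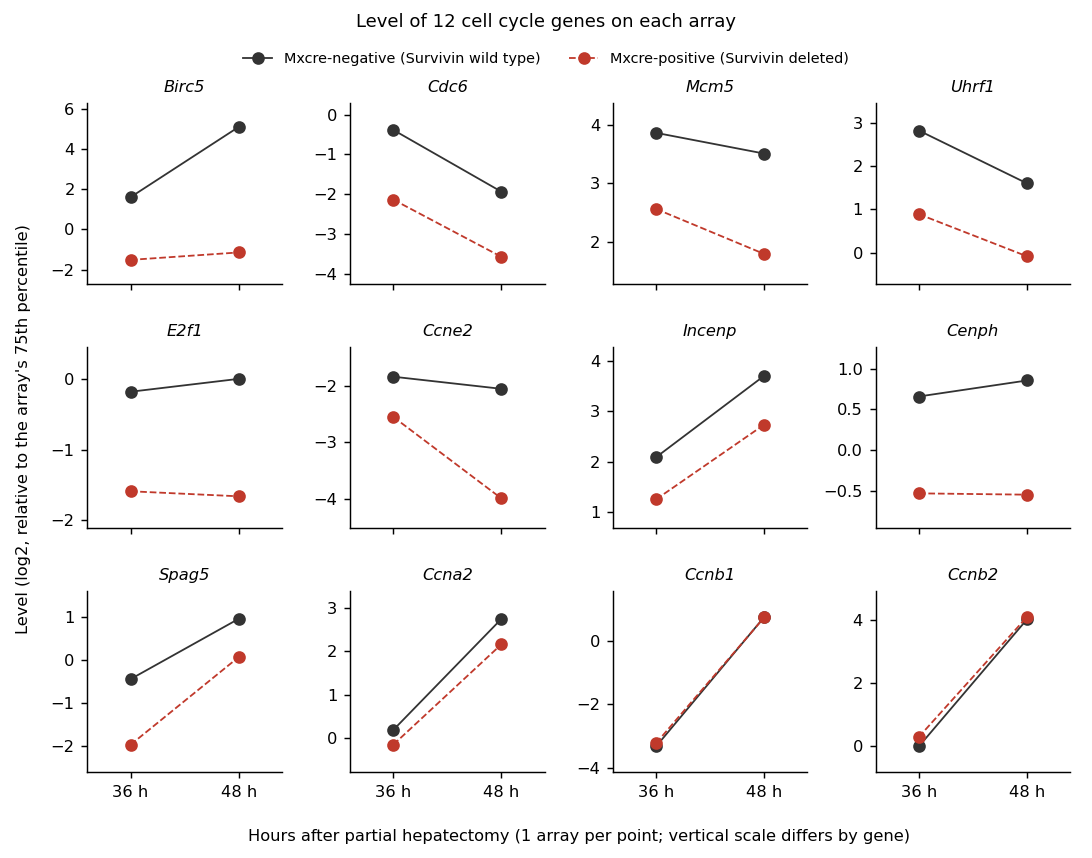
Level (log2, relative to the array's 75th percentile) of 12 cell cycle genes at 36 and 48 h after hepatectomy, 1 array per point, Mxcre-negative in black and Mxcre-positive in red. Birc5 and the replication genes Cdc6, Mcm5 and Uhrf1 are lower in the Mxcre-positive sample at both times, while Ccnb1 differs by 0.10 and -0.01.

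Genes of the kinetochore and spindle were also mostly lower, by less than the replication genes. Over the chromosomal passenger, kinetochore and spindle lists together, 78 of 91 genes were lower in both pairs, 3 were higher, and 4 were lower by 2-fold or more in both. The median difference was -0.71 at 36 h and -0.56 at 48 h. In the early pairs it was -0.16 at 0 h and -0.33 at 24 h. From 36 to 48 h the median gene was higher by 1.57 in the Mxcre-negative and by 1.75 in the Mxcre-positive samples, with 82 and 83 of 91 genes higher.

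At the kinetochore, 31 of 36 genes were lower in both pairs. Cenph, an inner kinetochore protein, was at 0.66 and -0.53 at 36 h and at 0.86 and -0.55 at 48 h. Spc24, of the Ndc80 complex that binds microtubules, was at 1.34 and 0.22, then at 1.61 and 0.33. These were the 2 kinetochore genes lower by 2-fold or more in both pairs. Ndc80 differed by -0.71 and -0.79. Zwint, a kinetochore protein, was higher at 0.47 and 0.42, and Spdl1, which recruits dynein, differed in opposite directions at 2.18 and -0.64. On the spindle and chromosome list, 40 of 47 genes were lower in both pairs, with medians of -0.69 and -0.50. The early medians were -0.14 at 0 h and -0.54 at 24 h. In both early pairs 29 of the 47 were lower, against 3541 of all 13517 genes tested. Spag5 (astrin), a spindle protein, differed by -1.53 and -0.89, and Smc2 and Ncapg2, condensin subunits, by -1.05 and -1.34 and by -0.96 and -1.40. Top2a, which untangles sister DNA, was at -0.93 and -1.66, then at 1.07 and -0.14. Mki67, the Ki-67 proliferation marker, was at 1.29 and 1.26, then at 4.48 and 3.37, and so differed at 48 h alone.

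The cell cycle homology region (CHR, letters TTTGAA, both strands) is the element through which the DREAM and MuvB complexes act on mitotic genes. It was found in 46 of 76 mitosis gene windows (60.5%), against 12.7% of the windows of genes tested and 18.1% of all windows. Among the replication genes the share was 18.5%. It was 15.7% among genes lower by 2-fold or more in both pairs and 17.8% among those higher. The mitosis lists too were chosen by function. The window of Birc5 held neither a CHR nor an E2F match. The CHR letters are few, so chance matches are common. The windows of Smc2, Kif15, a spindle motor, and Top2a are shown with the match in capitals, at chr4:52439049-52439108 (+), chr9:122950831-122950890 (+) and chr11:99024336-99024395 (-).
Smc2: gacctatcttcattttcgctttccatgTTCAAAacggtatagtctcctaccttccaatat
Kif15: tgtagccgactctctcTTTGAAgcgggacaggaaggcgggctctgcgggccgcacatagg
Top2a: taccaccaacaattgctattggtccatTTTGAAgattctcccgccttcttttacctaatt

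DNA damage and recombination genes, many of them made in S phase, were lower, whereas p53 targets and the apoptosis regulators were not displaced one way. Of 31 recombination, Fanconi and checkpoint genes, 28 were lower in both pairs, with medians of -0.90 and -0.64. Exo1, a nuclease, was at 0.59 and -1.01 at 36 h and at 0.11 and -1.08 at 48 h. Chek1, the checkpoint kinase, differed by -1.55 and -1.09, Rad51ap1 by -1.44 and -1.19, and Brca1 by -1.18 and -0.88. Atm, the double strand break kinase, differed by 0.12 and 1.59. Among 25 p53 targets, 3 were lower and 6 higher in both pairs, and the medians were 0.19 and -0.09. Mdm2, the p53 ligase, differed by -0.004 and 0.002, and Bax by 0.07 and -0.002. The 26 inhibitor of apoptosis and Bcl2 genes held 10 lower and 5 higher in both pairs, with medians of -0.11 and -0.02. Xiap differed by -0.01 and -0.31, and Mcl1 by -0.11 and -0.25.

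**Figure D3:**
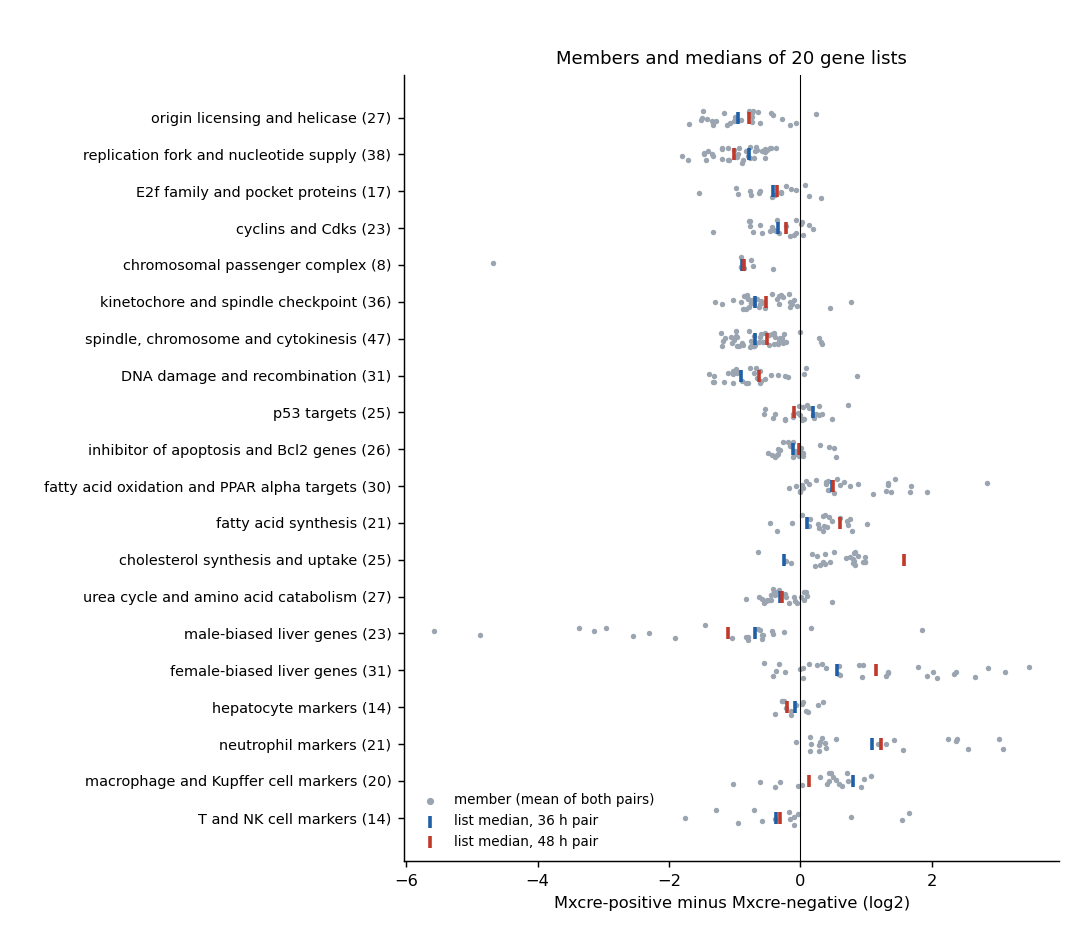
Mean difference of each member (grey points, log2, mean of both pairs) of 20 gene lists, with the list median in the 36 h pair (blue) and the 48 h pair (red), and the number of genes tested in brackets. Both replication lists have their medians between -1.02 and -0.79, and cholesterol genes have medians on either side of 0 (-0.25 and 1.58).

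Most liver genes with male-biased expression were lower, and 16 of 31 with female-biased expression were higher in both pairs, beside the sex-linked transcripts given above. Of 23 male-biased genes, 19 were lower in both pairs and 8 by 2-fold or more in both, with medians of -0.70 and -1.10. Cyp4a12a, a fatty acid hydroxylase, was at 4.07 and -0.79 at 36 h and at 4.47 and -1.83 at 48 h. This is 29.1-fold and 78.7-fold lower. Nat8f5 and Nat8, acetyltransferase family genes, were 12.8-fold and at least 66.2-fold lower and 4.32-fold and 17.9-fold lower. C6, a complement component, was 4.86-fold and 12.4-fold lower. Mup1, which encodes an abundant urinary protein, differed by -0.44 and -0.40. Against the list, Hao2, a peroxisomal oxidase, was higher at 36 h, by 2.16, while neither 48 h array was well above background.

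Of the 31 female-biased genes, 1 was lower in both pairs and 14 differed in opposite directions, with medians of 0.55 and 1.15. Sult2a3, a sulfotransferase, was at -1.04 and 0.28 at 36 h and at -3.38 and 0.60 at 48 h. Sult3a2, of the same family, was at 0.43 and 2.55, then at -4.13 and -0.01. In both genes the Mxcre-negative sample of 48 h was the lowest of the 4. A1bg, a plasma protein gene, was 7.90-fold and at least 8.57-fold higher in the late pairs. At the measured signal it differed by -2.89 at 0 h but by 8.20 at 24 h, more than in either late pair. Cyp2b9 and Cyp2b13, female-biased cytochromes, differed in opposite directions, at 0.64 and -1.30 and at 0.55 and -1.39. The part of sex in these differences cannot be told apart from that of genotype.

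The identity of the tissue held in all samples, and 13 of 21 neutrophil markers were higher in both Mxcre-positive samples. Of 14 hepatocyte markers, all well above background on all 4 arrays, 7 were lower and 2 higher in both pairs, and the medians were -0.08 and -0.20. The log2 mean signal over these markers was 8.39 and 8.33 at 36 h and 8.50 and 8.26 at 48 h. Under quantile normalization the medians were -0.00 and -0.03. Alb (albumin) differed by -0.16 and -0.12. In bulk tissue, fewer cells of a type and less RNA per cell cannot be told apart.

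Of these 21 markers none was lower in both pairs, and 10 were higher by 2-fold or more in both. The median difference was 1.09 at 36 h and 1.23 at 48 h. The log2 mean signal over the list was 2.43 and 3.54 at 36 h but 2.88 and 3.02 at 48 h, where Lcn2, which hepatocytes also make, was lower. Camp (cathelicidin) was at -3.47 and -0.54, then at -3.40 and -0.28. Ngp, a granule protein, was at -3.15 and -0.24, then at -3.15 and 0.10. Mpo (myeloperoxidase) was at -0.36 and 1.59, then at -0.50 and 2.66. These 3 granule genes, made mainly by developing neutrophils in the marrow, were 3.86-fold to 9.51-fold higher in the late pairs. S100a8 and S100a9, calprotectin subunits of mature cells, differed by 1.31 and 1.81 and by 1.09 and 1.77. Cxcr2 and Csf3r, receptors of mature neutrophils, did not share this, at -0.20 and 0.53 and at 0.04 and -0.16. In the early pairs the direction was the opposite, with medians of -2.82 at 0 h and -0.91 at 24 h, and 11 of the 21 genes were lower in both early and higher in both late pairs. With the normexp background correction the late medians were 0.30 and 0.43, with 10 genes higher and 6 lower in both.

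Other cell types differed less. Of 20 macrophage and Kupffer cell markers, 12 were higher in both pairs, and the medians were 0.80 and 0.14. The log2 mean signal over that list was 1.42 and 2.06, then 2.09 and 2.23. Folr2 and Vsig4, of resident macrophages, differed by 1.15 and 0.99 and by 1.05 and 0.88. Ccr2 and Ms4a7, of recruited monocytes and macrophages, differed by 0.35 and -1.59 and by -0.23 and -1.83. Among 14 T and NK cell markers tested, 8 were lower in both pairs, with medians of -0.37 and -0.30. The 36 h median was -0.11 under quantile normalization and -0.09 over the 8 genes well above background on all 4 arrays. Endothelial markers had medians of 0.01 and -0.05. The erythroid genes Hba-a1 and Hbb-bt differed by -0.63 and -0.45 and by -0.42 and -0.47. The part of cell composition in the other differences was not tested.

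**Figure D4:**
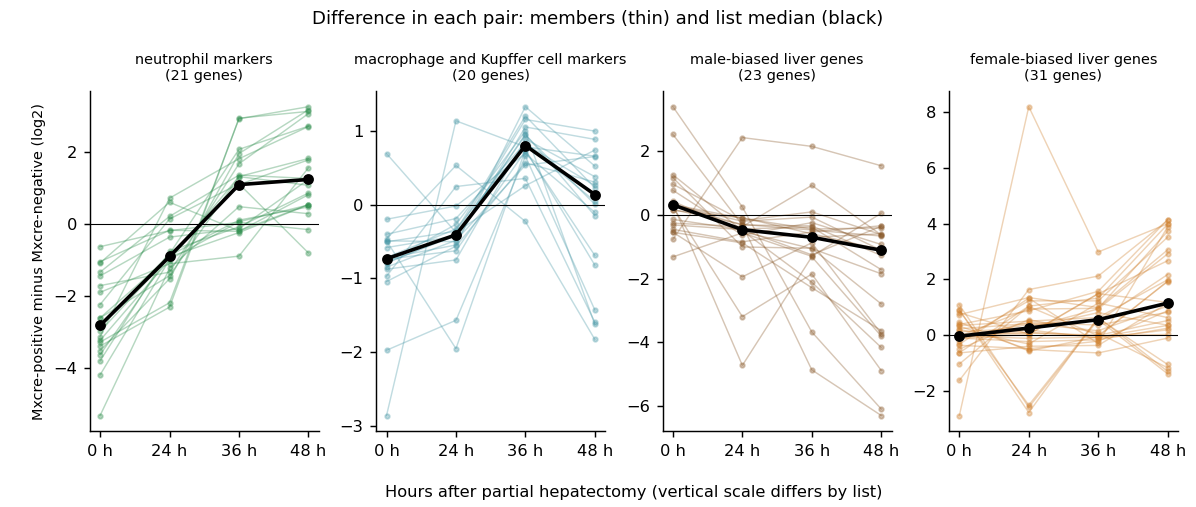
Difference between genotypes (log2) in the pairs of 0, 24, 36 and 48 h, 1 thin line per gene and the list median in black, for neutrophil, macrophage, male-biased and female-biased genes. The neutrophil median goes from -2.82 at 0 h to 1.23 at 48 h, while the male-biased median goes from 0.32 to -1.10.

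Most genes of fatty acid oxidation were higher in the Mxcre-positive samples. Of 30 genes on the list, which holds targets of the fasting-responsive receptor PPAR alpha, 22 were higher in both pairs and 2 were lower. Their medians were 0.48 and 0.49, and 5 genes were higher by 2-fold or more in both. Fgf21, a fasting-induced hormone of the liver, was at 0.41 and 2.73 at 36 h and at -0.27 and 3.11 at 48 h. Cidec, a lipid droplet protein, was at 4.96 and 6.37, then at 3.97 and 6.42. Acot2, a mitochondrial thioesterase, differed by 1.47 and 1.87, Ehhadh, of peroxisomal oxidation, by 1.61 and 1.29, and Cyp4a10 by 1.49 and 1.17. Cyp4a10 also stands on the female-biased list. Cpt1a, the gate of mitochondrial oxidation, differed by 0.46 and 0.38. Pdk4, which spares glucose, differed by 3.05 at 36 h but 0.31 at 48 h. The median was 0.28 at 0 h and 0.09 at 24 h, with 16 of 30 genes higher in both early pairs.

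The cholesterol pathway differed in opposite directions in the 2 pairs. Of 25 genes, 21 were lower at 36 h and 23 were higher at 48 h, with medians of -0.25 and 1.58. Lss, lanosterol synthase, was at 2.03 and 1.27 at 36 h and at 0.02 and 2.40 at 48 h. Hmgcs1, the synthase that opens the pathway, was at 6.13 and 5.59, then at 4.75 and 6.95. In both genes the Mxcre-negative level was lower at 48 than at 36 h and the Mxcre-positive level was higher. The same was seen in the median gene, at -0.94 in Mxcre-negative and 0.71 in Mxcre-positive samples. The difference for Hmgcs1 was -0.54 and 2.20, and its window held the letters of a sterol regulatory element (SRE, TCACCCCAC), shown in capitals at chr13:119690188-119690247 (+).
Hmgcs1: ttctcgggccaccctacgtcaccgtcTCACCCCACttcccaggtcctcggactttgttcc

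This match stood in 1 of 17 windows of the pathway and in 0.57% of the windows of genes tested, and CCAAT in either direction in 15 of 17 (88.2%) against 38.2%. Fatty acid synthesis genes were nearer to 0 at 36 h, with medians of 0.10 and 0.60 and 12 of 21 higher in both pairs. Gpam and Scd1, of triglyceride and unsaturated fatty acid synthesis, differed by 0.63 and 1.39 and by 0.53 and 0.98. Bile acid genes went several ways. Cyp7a1, whose enzyme limits the rate at which bile acids are made, differed by 1.42 and 1.08, and Slc51b, a bile acid exporter, by 1.23 and 1.17. Cyp8b1, which sets the share of cholic acid, was at -2.38 and 2.04, then at -2.19 and -2.86, so that the Mxcre-positive sample of 36 h stood alone.

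**Figure D5:**
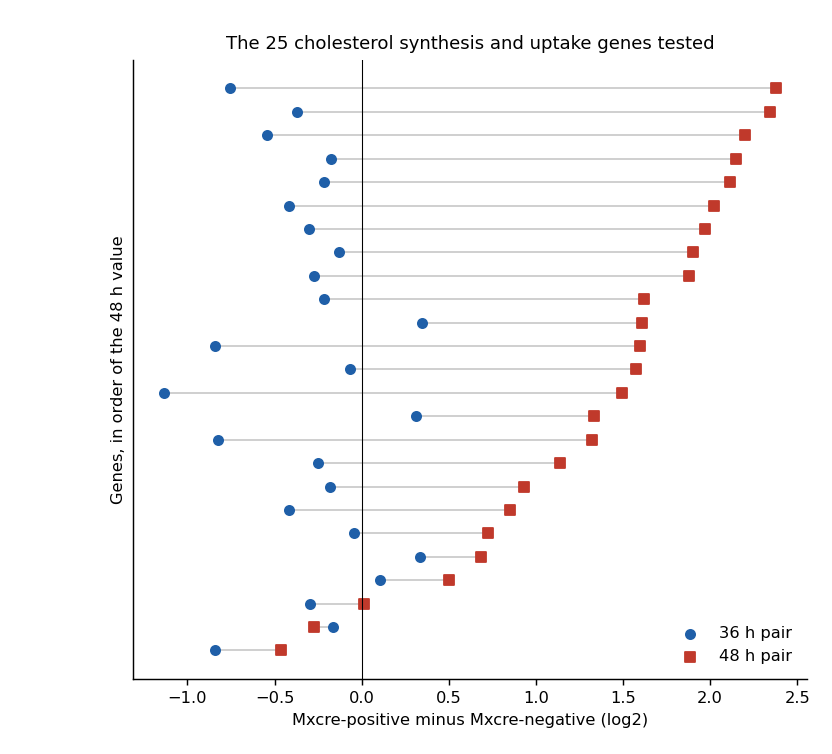
Difference between genotypes (log2) in the 36 h pair (circles) and the 48 h pair (squares) for the 25 cholesterol synthesis and uptake genes tested, 1 gene per line in the order of the 48 h value. At 36 h 21 genes lie below 0 and at 48 h 23 lie above it.

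Amino acid and glucose metabolism differed by less, with a few larger members. Among 27 genes of the urea cycle and of amino acid breakdown, 17 were lower in both pairs, with medians of -0.30 and -0.28. Hpd, of tyrosine breakdown, differed by -0.57 and -0.54. Igfbp1, a secreted binding protein that insulin represses, was at 6.57 and 8.18, then at 6.55 and 8.12. Lepr, the leptin receptor, differed by 1.40 and 3.49, and Cish, a feedback target of growth hormone signalling, by -0.47 and -1.08. Ghr and Igf1 differed in opposite directions, at 0.19 and -0.64 and at 0.12 and -0.27. On the Atf4 list Asns, asparagine synthetase, was lower at -1.28 and -1.66, while Psat1 and Trib3 were higher at 1.26 and 2.17 and at 0.81 and 1.05.

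Stress and inflammation genes did not hold 1 sign as lists. Acute phase proteins had medians of 0.21 and -0.47, with 21 of 28 higher at 36 h and 24 lower at 48 h. Under quantile normalization the 48 h median was -0.24, and the genes lower and higher in both pairs went from 7 and 4 to 3 and 8. Interferon-stimulated genes, relevant because Mxcre was induced with poly(IC), had medians of 0.47 and -0.07, with 25 of 28 higher at 36 h and 11 at 48 h. Genes of the unfolded protein response had medians of 0.28 and -0.15, yet Kdelr3, which returns proteins to the endoplasmic reticulum, was higher in both pairs at 1.75 and 1.59. Among 20 immediate early genes, 10 were higher in both pairs. Ier3, which limits stress signalling, was at -1.77 and 1.04, then at -1.76 and 0.19. Fosl1, an AP-1 subunit, differed by 1.51 at 36 h and by at least 1.40 at 48 h, where the Mxcre-negative array was not well above background.

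By size, with Y-linked genes and Xist described apart, 12 genes were taken in each direction, ranked by the smaller of their 2 differences (at its bound where an array was dim), and each had a limma adjusted p of 0.430. Beyond those already named, Rbm24, an RNA-binding splicing regulator of muscle, was highest, at least 9.39-fold and at least 15.7-fold higher in the Mxcre-positive samples. Meltf (melanotransferrin), an iron-binding membrane protein, was at -3.04 and -0.38, then at -3.13 and -0.02. Adra2a, an adrenergic receptor, differed by 2.09 and 2.39, and Cgref1, a secreted calcium-binding protein, by 1.89 and 2.01. Ltf (lactoferrin), of neutrophil granules, differed by 2.07 and 2.71. Meltf had no such difference in the early pairs, at -0.04 and -0.15.

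Among the lowest, Obp2a, an odorant-binding lipocalin, was at -0.18 and -6.36 at 36 h and at 0.40 and -6.51 at 48 h. It was not well above background on either Mxcre-positive array, at least 18.6-fold and at least 36.3-fold lower. In the early pairs Obp2a was at -6.24 and -6.56 at 0 h and at -0.56 and -0.83 at 24 h, Mxcre-negative first. The Y-linked Ddx3y was at -6.39 and -6.61, then at 1.70 and 1.27. The part of sex in the Obp2a difference was not tested. Sema3e, a guidance ligand, was also dim on both late Mxcre-positive arrays, at least 13.8-fold and at least 20.8-fold lower. It was lower in the early pairs too, by -1.34 at 0 h and -1.28 at 24 h. Cfd (adipsin), a complement protease, was 12.6-fold and at least 75.3-fold lower. Myom2, a sarcomere protein, was at 0.96 and -2.27, then at 0.44 and -2.25, and Meg3, an imprinted noncoding RNA, at 1.39 and -1.74, then at 1.07 and -1.47. Nox4, an NADPH oxidase, differed by -2.40 and -3.28. Slc8a1, the sodium-calcium exchanger, differed by -2.61 and -2.93, but another of its probes by -0.29 and 0.05. Myom2 was well above background in both late Mxcre-positive samples, but not in that of 0 h. Its difference at the measured signal was -5.76 at 0 h, larger in size than in the late pairs, and -0.36 at 24 h.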

How the data were processed

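Total RNA of mouse liver was measured on 8 one-colour Agilent arrays, scanned with Feature Extraction 10.7.3.1 per the file headers (10.7 per the submitters' processing notes). The deposited scanner files give the processed signal as a linear intensity per spot, which the authors' software had corrected for background. The deposited values of the whole series are on a log2 scale, with a correlation of at least 0.999 with the same arrays and a median of 5.51 in each. How they were centred is not given in the sources used here.

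Spots of 1 probe were averaged after spots marked as outliers were left out, which kept 41056 of 41174 probes. Each array was scaled to its 75th percentile and taken to log2. The brightest probe stood for a gene, named by matching its accession to RefSeq (GRCm38.p6), which gave 18316 genes from 26839 probes. Differences were fitted with limma 3.58.1 (R 4.3.3, with the data.table package at version 1.17.8), with genotype and time as block and Benjamini-Hochberg adjustment over 13517 genes. With 1 residual degree of freedom, p-values rest on the moderated spread (prior degrees of freedom 1.95) and measure only the spread between these arrays. No source says which samples are separate animals. Medians, counts and folds were computed from the same values. For a dim array a fold is set against the lowest signal of probes well above background there. The named genes are the 12 in each direction with the largest smaller difference of the 2 pairs among genes well above background on both arrays of the brighter genotype (Y-linked genes and Xist described apart), members of each list with the largest mean difference in the direction of its median or with a large opposite one, and up to 5 genes in each direction that changed sides between pairs or had the smallest p for late minus early. Other list members were named for their known role after their values were seen. The members and lists were chosen with earlier results of these data known. Promoter windows came from RefSeq, with chromosome 18 left out. The model was run on simulated data with known changes, drawn with the spread of its own fit. This checked the size of the estimates, and how often such a change was called is not given here. Alternatives were quantile scaling, the deposited values, normexp, other filters and probe rules, other forms of the fit, and each pair left out.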

Additional observations from a re-analysis of the deposited data

Results flagged for a closer look

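For 7 lists the median difference had 1 sign in both early pairs (0 and 24 h) and the other sign in both late pairs (36 and 48 h). These differences between early and late pairs were not tested as lists. The late minus early median was 3.02 for neutrophil markers, with medians of -2.82, -0.91, 1.09 and 1.23 over the 4 pairs. It was 1.04 for macrophage and Kupffer cell markers, with medians of -0.73, -0.41, 0.80 and 0.14. It was 0.47 for immediate early genes, 0.28 for Cdk inhibitors, 0.27 for growth factors and their receptors, 0.23 for the growth hormone and IGF axis and -0.19 for hepatocyte markers. In the last 4 of these lists at least 1 pair had a median within 0.05 of 0. The early arrays lay on the other slide of the series. Ddx3y was well above background on both arrays of the 24 h pair and on neither of the 0 h pair, unlike in the late pairs. Slide, stage and this sex-linked difference therefore cannot be told apart.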

How the results depend on the processing

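No result for the 24 genes named by size changed direction in any of the 210 values computed under other settings. This count is no check of them, because the genes were chosen for large differences in these same data. Settings that change only the fit or the filter also leave a difference as it was. The limma fit called 0 genes in every alternative run except the fit of all 8 arrays. There it called 1, Sema3e, with an adjusted p of 0.0421. That call rests on dim signals, since Sema3e was not well above background on either late Mxcre-positive array. The gene was also lower in both early pairs. The count of genes higher by 2-fold or more in both pairs was 91, and 45 with normexp. The count lower was 139, then 287 with no filter on dim probes, 34 with normexp and 67 with genes well above background on all arrays. The lower count exceeded the higher one in the main setting, with no filter on dim probes and with the mean of all probes. With quantile scaling, the deposited values, normexp and genes well above background on all arrays it did not. The excess of lower genes by this rule therefore depended on the scaling and on dim probes. The planned normexp could not be used, because its fitted background was negative on 6 of the 8 arrays, among them all 4 early ones (-393 to -140) and the late Mxcre-positive ones (-384 and -192), against 6.73 and 12.8 on the remaining 2. A form with marked local backgrounds replaced, on the median signal since the files analysed give no mean signal, was chosen after seeing the data, as were the counts without sex-linked and sex-biased genes and the medians with dim arrays at their bound.

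Of the median differences over members (mean of both pairs), replication genes went from -0.91 to -0.70 with normexp, mitosis genes from -0.66 to -0.47, and DNA damage genes from -0.79 to -0.57. Fatty acid oxidation genes went from 0.54 to 0.56 with the deposited values, 0.55 with normexp and 0.55 with quantile scaling. Neutrophil markers went from 0.55 to 0.90 with the mean of all probes, 0.66 with quantile scaling and 0.21 with normexp. With a single pair left, the lowest and highest medians were -0.92 and -0.81 for replication genes, 0.48 and 0.49 for fatty acid oxidation genes, -1.10 and -0.70 for male-biased genes and 1.09 and 1.23 for neutrophil markers. For cholesterol genes the median of 0.70 was -0.25 without the 48 h pair and 1.58 without the 36 h pair. The cause of these shifts was not tested. The share of lower genes among those of 1 sign stayed within 10 percentage points under each scaling. With 1 array per group, no spread within a group is known, and dim probes give only bounds. The pairs were matched by time, which was the block in the fit, and without that block limma also called 0 genes. The labels give no replicate numbers, so no replicate block was fitted.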

Other observations

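Some genes differed in opposite directions in the 2 pairs. Asic5, an ion channel gene, differed by 3.60 at 36 h and -2.83 at 48 h. Lefty1, a TGF beta family ligand, differed by 1.25 and -2.26, Cidea, a lipid droplet gene, by 2.47 and -1.34, and Siglec1, a macrophage receptor, by 1.29 and -1.65. The other way round, Pate5 differed by -2.45 and 3.26, Cel, a pancreatic-type lipase, by -1.44 and 1.83, and Ncam1, an adhesion molecule, by -1.60 and 1.68. By 2-fold or more, 29 genes were higher at 36 h and lower at 48 h, and 80 were lower at 36 h and higher at 48 h. Beside Camp, Ngp and Meltf, the smallest p for late minus early differences on the higher side included Mst1r, a receptor tyrosine kinase, at 0.97 and 1.21 in the late pairs against -1.01 in each early pair (limma adjusted p 0.342).

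Rgs16, a regulator of G protein signalling whose liver level follows feeding time, was at -1.34 and 0.40 at 36 h and at -3.47 and 1.47 at 48 h. The 20 circadian genes tested, Rgs16 among them, had medians of 0.06 and 0.27. These and the following genes were chosen after their values were seen. Klf1, an erythroid regulator, differed by -0.04 and -3.22, and Spp1, osteopontin, by -0.96 and -2.22. Afp, alpha-fetoprotein, differed by -0.03 and 1.61. Lyve1, of sinusoidal endothelium, differed by 2.02 and 0.70. Prf1 (perforin), of cytotoxic lymphocytes, differed by at least 1.56 at 36 h, where the Mxcre-negative array was not well above background, and by 1.09 at 48 h.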
